A study of Mus musculus with 12 samples.

Results

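The Spata, Spag and Tex genes carry names given for where they were found: spermatogenesis associated, sperm associated antigen, and testis expressed. They share a naming history, not a protein family. Members were all genes whose symbol starts with Spata, Spag or Tex followed by a digit and that have a probe set annotated to that symbol alone, without Spata16, Tex11, Tex12 and Tex101. The rule gave 63 genes (21 Spata, 10 Spag and 32 Tex) of 18194 genes with such a probe set, and each gene was read from its probe set with the highest mean over the arrays. They were followed across 4 groups of mouse germ cells and germ cell-like cells with 3 arrays each. Spermatid-like cells (SLC) were made in vitro, and round spermatids (RS), the haploid cells that follow meiosis, came from testis of 3-week-old BDF1 mice. Primordial germ cell-like cells (PGCLC) were taken at day 6 of differentiation in vitro, and primordial germ cells (PGC), the fetal precursors of sperm, came from the genital ridge of male BDF1 fetuses at stage E12.5. The labels give neither the starting cells of the in vitro groups nor the FACS gate used to collect the cells. They call the arrays of a group biological replicates without naming animals or cultures, so p-values measure the spread between these arrays.

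Total RNA was hybridised to Affymetrix 3' expression arrays, and the deposited values are intensities on a linear scale that the authors had scaled to the same trimmed mean of 500 units on every array. Between 44.5% and 53% of probe sets on an array lay over 92.03 units, the median of the whole table, which serves here as the limit above which a gene was taken as measured. Correlations between arrays of a group on the log2 scale were 0.984 to 0.987 for SLC, 0.977 to 0.984 for RS, 0.914 to 0.976 for PGCLC and 0.986 to 0.988 for PGC, so the PGCLC arrays were the most unlike each other. The summed signal of 8 round spermatid markers was 129217 to 135054 units in SLC and 173366 to 184902 units in RS, against 229 to 378 units in PGCLC and 282 to 410.5 units in PGC. The summed signal of 12 testis somatic markers was 64611 to 65847 units in SLC, against 2484 to 2869 units in RS. Of those somatic markers, 11 of 12 were higher in SLC than in RS, and Cyp11a1 was the only one at the floor on all RS arrays. For 6 fetal germ cell markers the sums were 15572, 55298 and 36630 units on PGCLC arrays 1, 2 and 3, and 60836 to 65487 units in PGC. The part of these marker differences in the results below was not tested.

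Much of the sperm is built after meiosis, when a round spermatid condenses its nucleus, assembles an axoneme of microtubules with a central pair, and couples the tail to the head. Many genes for these structures are transcribed in spermatocytes and spermatids, under factors such as the CREM activator, which binds cAMP response elements, the RFX factors, which bind X-boxes, and the MYB factor A-MYB of meiotic cells. Other members act earlier or elsewhere. TEX14 builds the intercellular bridges that join dividing germ cells, TEX15 and the TEX19 proteins act in meiosis and in the control of transposons, and several members, such as TEX10 in ribosome assembly, work in most cell types.

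Promoter windows were read to show what sequence precedes members that are measured in spermatids. RefSeq gene starts on GRCm38.p6 gave 66 windows of 250 bases upstream for 54 of the 63 members, and 32851 windows for all genes. Each window was searched on both strands for the full cAMP response element TGACGTCA, its core TGACG, the X-box core GTTGCC and the MYB core AACTGCC. The full element contains its own core, so a window with the first also counts for the second. The full element stood in 2 of 66 member windows (3.03%), those of Spag4 and Spag6l, and in 1.55% of all windows. Its core stood in 24.2% of member windows and 17.8% of all windows, and the MYB core in 4.55% of member windows and 3.33% of all windows. The X-box core stood in 10 of 66 member windows (15.2%) and in 10.4% of all windows. It was found in 8 of 34 windows (23.5%) of members over the limit on all SLC and RS arrays but on no PGC or PGCLC array, and in 1 of 26 windows (3.85%) of members over the limit on all PGC arrays. Windows of the same gene can overlap, so the 8 windows with the X-box core belong to 6 genes. The core of the cAMP response element ran the other way, in 6 of the 34 windows (17.6%) and 9 of the 26 (34.6%). The MYB core did too, in 1 of the 34 (2.94%) and 2 of the 26 (7.69%). The full element stood in 2 of the 34 (5.88%) and 0 of the 26. Below are the windows with the full element and those of 3 further members with the X-box core, 2 of them for proteins of the axonemal central pair, written 5′ to 3′ on the gene's strand up to the base before the start. Capitals mark the searched letters on either strand. The Spag4 window is chr2:156064963-156065212 on the plus strand, that of Spag6l chr16:16829364-16829613 on the minus strand, that of Spag16 chr1:69826720-69826969 on the plus strand, that of Spag6 chr2:18698772-18699021 on the plus strand, and that of Tex33 chr15:78395913-78396162 on the minus strand.
Spag4: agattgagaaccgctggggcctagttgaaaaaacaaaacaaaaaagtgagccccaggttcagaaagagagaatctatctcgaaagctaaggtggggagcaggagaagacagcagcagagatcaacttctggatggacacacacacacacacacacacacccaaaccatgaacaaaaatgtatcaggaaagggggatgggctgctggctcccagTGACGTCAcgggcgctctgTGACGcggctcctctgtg
Spag6l: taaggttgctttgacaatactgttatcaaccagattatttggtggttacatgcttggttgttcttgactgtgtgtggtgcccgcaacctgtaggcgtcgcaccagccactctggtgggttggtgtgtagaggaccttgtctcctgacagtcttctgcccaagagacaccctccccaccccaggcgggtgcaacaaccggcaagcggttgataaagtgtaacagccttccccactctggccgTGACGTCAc
Spag16: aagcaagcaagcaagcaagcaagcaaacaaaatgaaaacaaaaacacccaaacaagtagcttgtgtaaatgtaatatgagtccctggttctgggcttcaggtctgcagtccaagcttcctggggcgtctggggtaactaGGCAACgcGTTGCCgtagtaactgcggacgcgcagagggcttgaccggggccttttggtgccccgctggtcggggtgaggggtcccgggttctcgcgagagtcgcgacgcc
Spag6: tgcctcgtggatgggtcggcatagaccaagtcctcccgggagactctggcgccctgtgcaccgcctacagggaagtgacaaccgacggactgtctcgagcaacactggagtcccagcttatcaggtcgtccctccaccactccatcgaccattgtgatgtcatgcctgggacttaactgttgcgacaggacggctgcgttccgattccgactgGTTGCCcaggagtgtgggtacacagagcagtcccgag
Tex33: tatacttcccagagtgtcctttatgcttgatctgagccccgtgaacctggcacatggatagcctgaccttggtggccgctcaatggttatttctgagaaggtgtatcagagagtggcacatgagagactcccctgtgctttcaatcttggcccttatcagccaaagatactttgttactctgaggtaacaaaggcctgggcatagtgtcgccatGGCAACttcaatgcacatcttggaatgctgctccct
The full element began 37 bases before the start of Spag4 and 9 bases before that of Spag6l. Spag16 held the X-box core on both strands, at 111 and 103 bases before its start. A match of letters is a description of the window and shows no binding.

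The members fell into a large set seen only in spermatids and spermatid-like cells and a smaller set already present in fetal germ cells. In the heatmap of levels, 33 of 63 members lay under the limit on all 6 PGC and PGCLC arrays, and 8 of these lay under the floor of 30.75 units, the 25th percentile of the table, on every one of them. Of the 33, Tex26 lay under the limit on the SLC and RS arrays too, and the other 32 were seen only in SLC and RS. A further 21 members lay over the limit on all 12 arrays. Spata5l1, of the AAA ATPase family, and Tex26 did not pass the filter of 3 arrays over the limit and were not tested, which left 61 members among 14197 genes tested. In bulk RNA, fewer cells of a type and less RNA per cell cannot be told apart, here and in every comparison below.

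**Figure D1:**
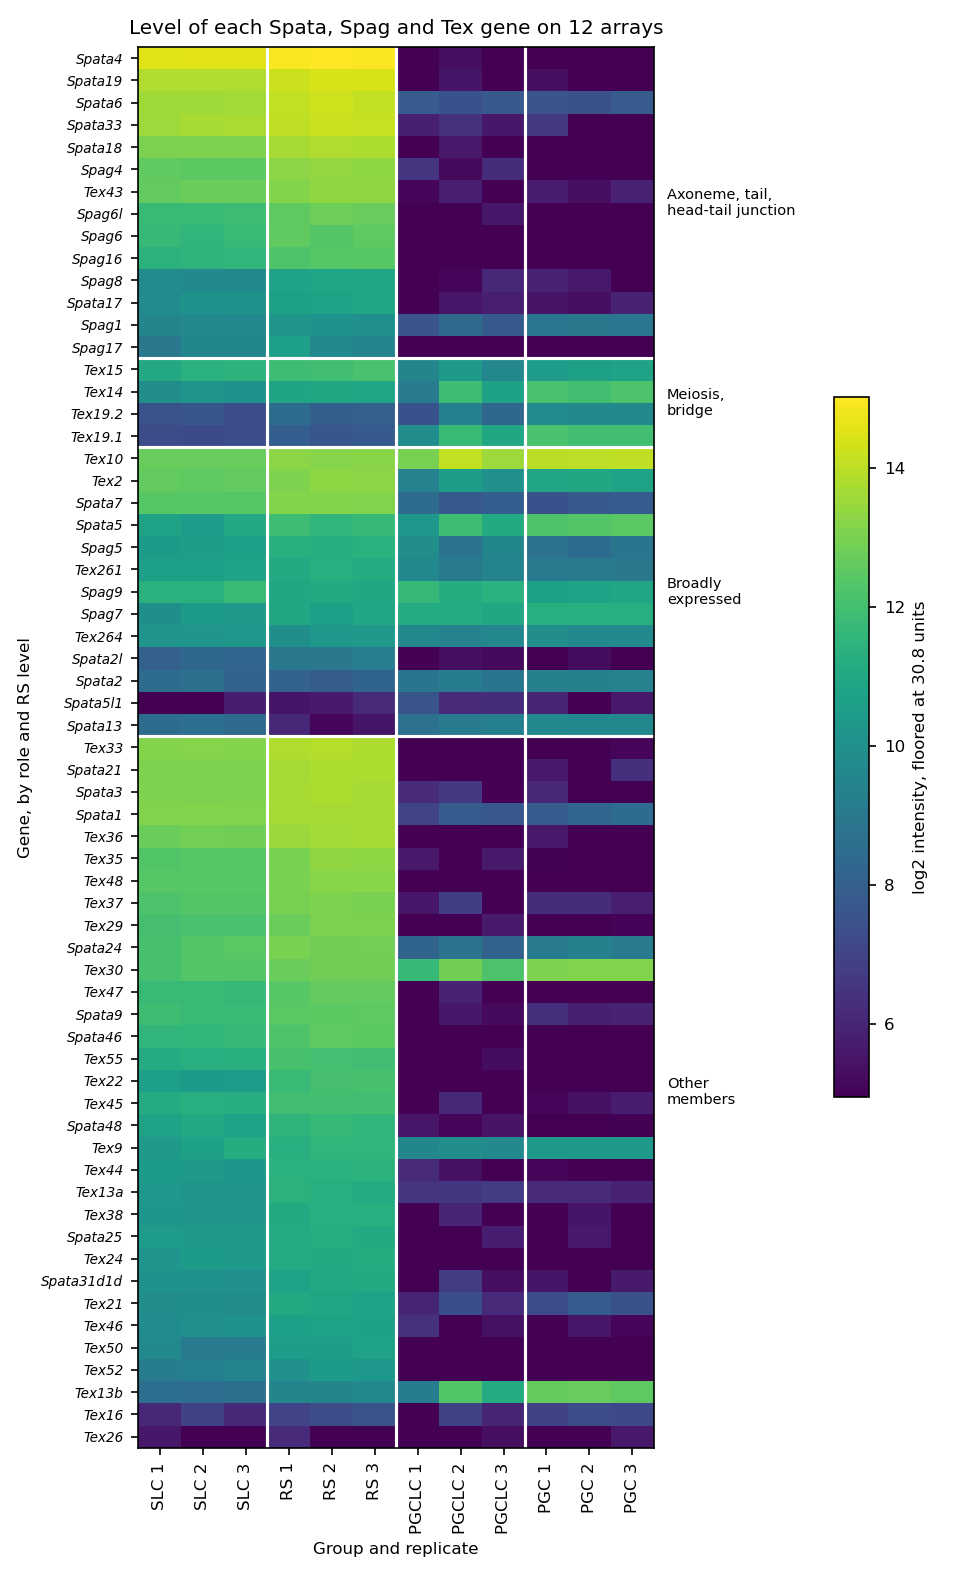
Heatmap of the log2 intensity of the 63 members (rows, grouped by role and ordered by RS level) on the 12 arrays (columns: 3 each of SLC, RS, PGCLC and PGC), with values under 30.75 units drawn at that floor. Most axoneme and tail members are bright in SLC and RS and dark in PGCLC and PGC, with Spag1 and Spata6 over the limit on all 12 arrays. Tex14, Tex19.1, Tex13b, Tex10 and Tex30 are bright in PGC and uneven across the 3 PGCLC arrays.

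Round spermatids were set against fetal PGCs to show which members belong to the late stage in vivo. A gene was called where its limma p, adjusted over all 14197 genes by the Benjamini-Hochberg method, was under 0.05 and the change at least 2-fold. Of 61 members tested, 48 rose and 6 fell in RS relative to PGC, where 31.8% of all genes rose and 37.7% fell. Since 32 of the 61 were under the limit on all PGC and PGCLC arrays and could pass the filter only through spermatid arrays, their rises follow from the filter. Among the 24 members over the limit on all PGC arrays, 11 rose and 6 fell. The same number, 48, rose in SLC relative to PGCLC, where 29.9% of all genes rose, and 2 fell, Tex19.1 and Tex13b, where 27.4% of all genes fell (5 members without PGCLC array 1). The 6 falls in RS were those of Tex14, Tex19.1, Tex19.2, Spata13 and Tex13b and, named after its values were seen, Spata2.

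The axoneme, tail and head-tail junction members were bright in both kinds of spermatid. All 14 rose in RS over PGC, where 31.8% of all genes did, and in SLC over PGCLC, where 29.9% did, but 11 of the 14 passed the filter only through the spermatid arrays, so their rise follows from it. Their group means ran from 669 to 23955 units in SLC and from 1042 to 32169.6 units in RS. Spata4 was the brightest member, with 23531, 24155 and 24178 units in SLC and 31384, 33183 and 31942 units in RS, against 3.28, 40.0 and 24.8 units in PGCLC and 29.8, 4.08 and 10.1 units in PGC. Its RS over PGC difference was 10.03 ± 0.11 on the log2 scale (SE), or at least 1046-fold (limma adjusted p = 7.6e-15), and "at least" is written where the lower group had an array under the floor. Spata19, a mitochondrial protein needed for the sperm midpiece in mice, had 14455, 14549 and 14417 units in SLC and 19467, 22009 and 21596 units in RS. In PGCLC it had 14.7, 45.5 and 5.7 units and in PGC 41.1, 17.5 and 25.7 units, so that no fetal-stage array reached the limit. Its rise was at least 620.1-fold in RS over PGC (limma adjusted p = 2.47e-13) and at least 413-fold in SLC over PGCLC (limma adjusted p = 5.83e-13). Spata18, a protein of mitochondrial quality control, was read at 8542 ± 149 units in SLC, 14005 ± 639 in RS, 29.1 ± 20.9 in PGCLC and 16.9 ± 14.4 in PGC (SD, n = 3 each). Spata6, which is required for the head-tail coupling apparatus in mice, differed from these in having a signal before meiosis. It had 12328 ± 149 units in SLC and 18346 ± 1545 units in RS, against 209 ± 24.5 in PGCLC and 199 ± 26.4 in PGC (SD, n = 3 each), a rise of 92.4-fold in RS over PGC (limma adjusted p = 2.61e-13). The size depends on the probe set: this one gave 6.53 on the log2 scale and the next 2 in brightness 3.34 and 4.51. Spag1, named after its values were seen, was the other of the 14 over the limit on all 12 arrays. It had 481 ± 3.85 units in PGC and 1080 ± 62.5 in RS (SD, n = 3 each).

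The central pair proteins of the axoneme were among the members with no signal over the limit in fetal-stage cells. Spag16 had 2716, 2857 and 3035 units in SLC and 4825, 5237 and 5478 units in RS, against at most 6.44 units in PGCLC and 22.7 units in PGC. The SLC and RS arrays did not overlap. Spag6 and Spag6l are near-identical copies, so their probe sets may share signal and the split between them is uncertain. Spag6 averaged 3252 ± 193 units in SLC and 5642 ± 459 in RS, and Spag6l 3547 ± 134 units in SLC and 6556 ± 638 in RS (SD, n = 3 each). Spag17, also of the central pair, had 499, 755 and 753 units in SLC and 1578, 822 and 725 units in RS. Its SLC and RS arrays overlapped, and the difference of -0.58 ± 0.28 (log2, SE) had a limma adjusted p of 0.0868. A dimmer probe set of Spag17 had 109, 167 and 181 units in SLC and 228, 258 and 317 units in RS. There the arrays did not overlap, and the difference was -0.83 on the log2 scale.

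Spag4, a SUN domain protein of the nuclear envelope that takes part in tail attachment, was the only member called higher in PGCLC than in PGC, where 10.4% of all genes were. It had 87.7, 36.6 and 76.2 units in PGCLC and 5.75, 16.1 and 22.2 units in PGC, all under the limit, against 6067, 5786 and 5715 units in SLC and 9974, 10701 and 10179 units in RS. The PGCLC over PGC difference was at least 2.03-fold (limma adjusted p = 0.0131), and the call was lost when only the 6 fetal-stage arrays were fitted, with quantile normalisation or median centring, and without PGCLC array 1 or 3. In spermatids the gene ran the other way, at -0.81 ± 0.25 in SLC relative to RS (log2, SE; limma adjusted p = 0.0146), short of 2-fold.

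Spermatid-like cells were then set against round spermatids, the comparison of in vitro and in vivo cells at the late stage. Most members were present in SLC at a lower level than in RS, and 47 of 59 measured members lay between 0.5 and 1 lower on the log2 scale. All 3 SLC arrays lay below all 3 RS arrays for 56 of 61 members, where this held for 40.4% of all genes, and the adjusted p alone was passed by 46 members that were lower, where 31.8% of all genes were, and by 2 that were higher, where 32.0% were. The 2-fold call left 6 members that fell, where 3.44% of all genes fell, and 1 that rose, where 24.0% rose. Among 59 members over the limit on all 6 of these arrays the median difference was -0.73 on the log2 scale, a ratio of 0.602, with the middle of the distribution between -0.84 and -0.58. For all 9778 genes over the limit on these arrays the median was -0.37. The members seen in SLC and RS only did not stand apart from other genes of that kind: their median was -0.78 (32 members, all below 0), and that of all 1496 genes with this pattern was -0.79, with 97.7% below 0. The median over all genes tested was -0.15 with the authors' scaling, -0.33 with quantile normalisation and -0.40 with each array centred on its median, and the members' count of falls was 6, 10 and 27 under these scalings. Over all genes the split of calls in SLC relative to RS was 3401 higher and 488 lower, against 2803 and 2238 with quantile normalisation and 2991 and 2533 with median centring.

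**Figure D2:**
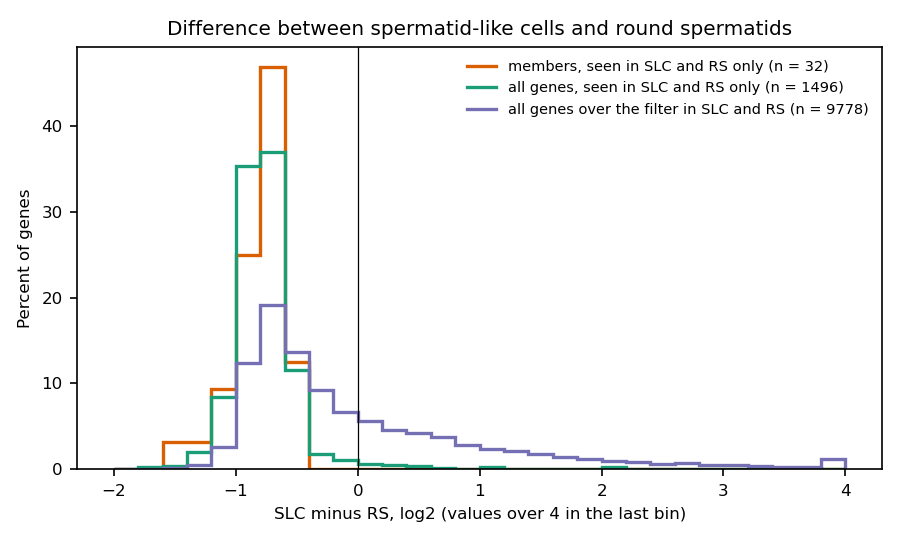
Histogram of the SLC minus RS difference on the log2 scale (x axis; values over 4 are in the last bin) as a percent of genes (y axis), for the 32 members seen in SLC and RS only, all 1496 genes with that pattern, and all 9778 genes over the limit on the 6 arrays. The 2 narrow distributions lie over each other, with medians of -0.78 and -0.79, and the wide one has a tail of genes that are higher in SLC.

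The 4 members over 15000 units in RS, Spata4, Spata19, Spata33 and Spata6, differed by -0.57 to -0.43, and the 27 members between 1000 and 5000 units had a median of -0.76 and ran from -1.45 to 0.51. Over all 59 measured members the difference showed little relation to the log2 RS level (Pearson r -0.077, Spearman rho 0.19). Tex22 had the largest fall, with 1582, 1385 and 1419 units in SLC and 3439, 4242 and 4331 units in RS and no overlap between the groups. Its difference was -1.45 ± 0.14 on the log2 scale (SE), or 2.73-fold lower (limma adjusted p = 3.33e-06). Tex50 had 877, 555 and 529 units in SLC, where array 1 was well above the other two, and 1506, 1544 and 1705 units in RS, a difference of -1.32 ± 0.20 (log2, SE; limma adjusted p = 0.00013). X-linked Tex13a had 1276, 1150.3 and 1181 units in SLC and 2735, 2537 and 2263 units in RS, or 2.08-fold lower (limma adjusted p = 3.34e-05), a value just past the threshold that came to -0.996 and missed the call without RS array 1. Spag8, a microtubule protein of the sperm tail, had 898, 838 and 881 units in SLC and 1708, 1925 and 1881 units in RS. It differed by -1.07 ± 0.30 (log2, SE; limma adjusted p = 0.00828) with the floor and by -1.06 with log2(value + 16) in its place, where the call was lost (limma adjusted p = 0.0596). Tex38 and Tex44, named after their values were seen, completed the 6 falls at 2.01-fold and 2.06-fold lower (limma adjusted p = 0.00796 and 0.00356).

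The brightest members of less described role repeated the pattern of the tail genes. Tex33 had 9053, 9329 and 9067 units in SLC and 14608, 15048 and 14079.5 units in RS, against 13.2 ± 11.2 units in PGCLC and 22.8 ± 13.1 units in PGC (SD, n = 3 each), a rise of at least 456-fold in RS over PGC (limma adjusted p = 8.04e-15). Tex36 averaged 7275 ± 314 units in SLC and 12467 ± 715 in RS, Spata21 8408 ± 98.6 in SLC and 13669.8 ± 623 in RS, and Spata3 8493 ± 172 in SLC and 13618 ± 404 in RS (SD, n = 3 each). No SLC array of these 4 genes reached an RS array. Of the 31 tested members in this list, 28 rose in RS over PGC, where 31.8% of all genes did, and 1 fell, where 37.7% did. Of the 31, 20 passed the filter only through the spermatid arrays, so their rise follows from it. All 31 had their SLC arrays below their RS arrays, as did 40.4% of all genes. Spata31d1d belongs to a multigene family, so its probe set may also read relatives.

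The members of meiosis, intercellular bridges and transposon control were measured on all 12 arrays and were brightest in PGC, except for Tex15. Tex14 had 969.9, 1153 and 1124 units in SLC and 1825, 1952 and 1916 units in RS, against 569, 3788 and 1672 units in PGCLC and 4441, 3979.5 and 4715 units in PGC. Its 3 PGCLC arrays ran from below every SLC array to just under the PGC arrays. Tex14 fell in RS relative to PGC by 1.20 on the log2 scale (limma adjusted p = 0.0355), a call lost without the filter on low values, with quantile normalisation, and without any of the RS or PGC arrays. Tex19.1 had 157, 148 and 162 units in SLC and 250.2, 202 and 219 units in RS, against 949.9, 3406 and 1950.2 units in PGCLC and 4449, 4049.9 and 4035 units in PGC. It showed the deepest fall of any member from the fetal to the late stage, 18.7-fold lower in RS than in PGC (limma adjusted p = 1.55e-07) and 11.9-fold lower in SLC than in PGCLC (limma adjusted p = 1.15e-06). Its relative Tex19.2 averaged 178 ± 22.6 units in SLC and 293 ± 63.3 in RS, against 374 ± 226 in PGCLC and 871 ± 37.1 in PGC (SD, n = 3 each), 3.01-fold lower in RS than in PGC (limma adjusted p = 0.00119). Tex15 ran the other way, with 2104, 2694 and 2780.4 units in SLC and 3838, 3875 and 4440.2 units in RS, against 732, 1341 and 772 units in PGCLC and 1453, 1623 and 1728 units in PGC, a rise of 2.53-fold in RS over PGC (limma adjusted p = 5.69e-05).

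**Figure D3:**
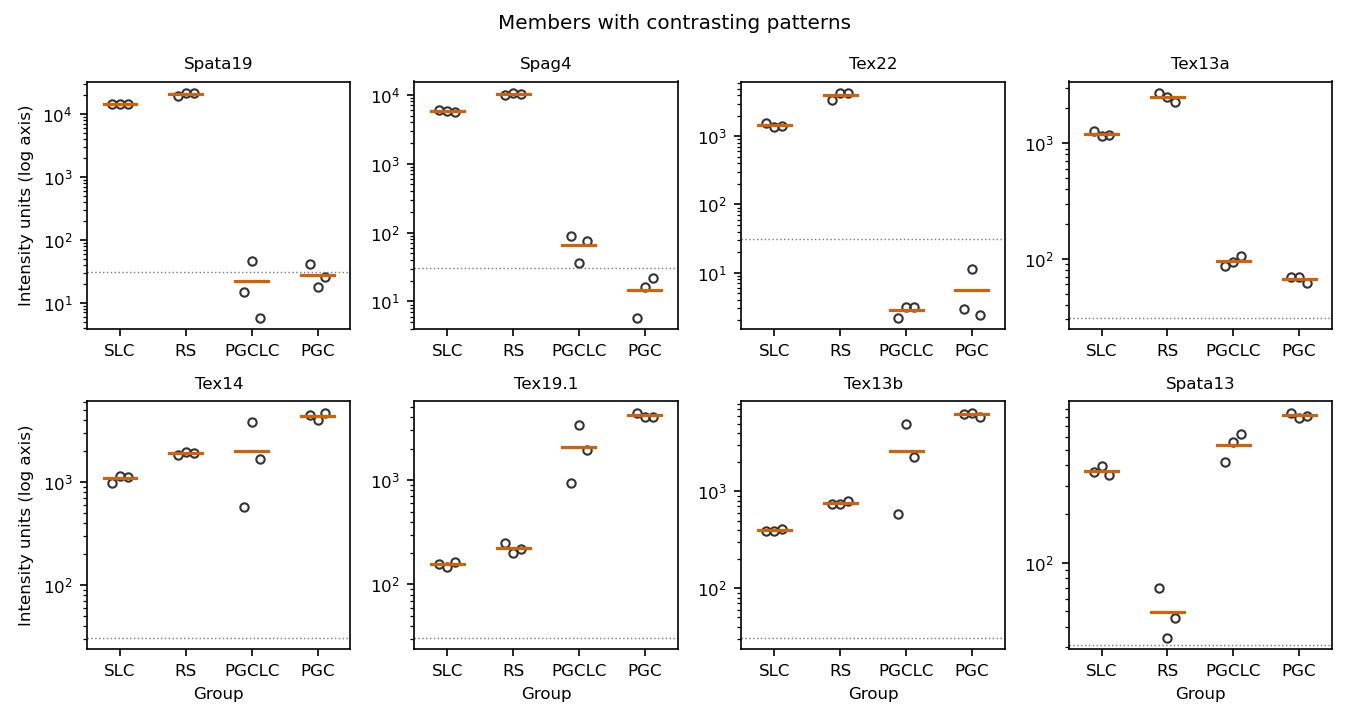
Intensity of 8 members on each array (open circles) and the group mean (bar) in SLC, RS, PGCLC and PGC, on log axes with a dotted line at the floor of 30.75 units. Spata19, Spag4, Tex22 and Tex13a are high in SLC and RS, Tex14, Tex19.1 and Tex13b are highest in PGC with PGCLC arrays far apart, and Spata13 is lowest in RS.

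PGC-like cells were set against PGCs, the comparison of in vitro and in vivo cells at the fetal stage. Of 61 members tested, 6 fell in PGCLC, where 1.62% of all genes fell, and 1, Spag4, rose. The summed testis somatic markers were 13196 to 15688 units in PGCLC and 5712 to 6607 units in PGC, with 4 of 12 called higher, 3 blood and macrophage markers were called higher, and their part in these calls was not tested. By the adjusted p alone 14 were lower, where 13.4% of all genes were, and 4 were higher, where 16.7% were. The falls were those of Tex13b, Tex14, Tex19.1, Tex19.2, Spata5 and, named after its values were seen, Tex21. X-linked Tex13b was the most variable, with 585, 4964 and 2236 units in PGCLC and 6294, 6502 and 5900.3 units in PGC, a difference of -1.74 ± 0.54 (log2, SE; limma adjusted p = 0.0337). It averaged 394 ± 11.6 units in SLC and 756 ± 32.4 units in RS (SD, n = 3 each), and was 8.24-fold lower in RS than in PGC (limma adjusted p = 0.000226). Spata5, an AAA ATPase of ribosome maturation, had 1263, 3767 and 2204 units in PGCLC and 4796, 5103 and 5496 units in PGC, 2.34-fold lower (limma adjusted p = 0.0123). Tex14, Tex19.1 and Tex19.2 differed by -1.51 ± 0.48, -1.18 ± 0.34 and -1.40 ± 0.35 on the log2 scale (SE), with limma adjusted p of 0.0362, 0.024 and 0.0144. The Tex14 call was lost without the filter, with quantile normalisation, and without any 1 array other than PGCLC array 2. Those of Tex13b and Tex19.1 were lost without any 1 of the PGC arrays and without PGCLC array 1 or 3. Tex13b also lost its call without the filter and without SLC array 1. With 1 array left out, Tex19.2 and Spata5 lost theirs only without PGCLC array 1. Tex21 had 62.8, 165 and 71.4 units in PGCLC and 152, 236 and 174 units in PGC, so its groups overlapped. These calls rested on the PGCLC arrays unequally: 0 members fell without PGCLC array 1 (16 at an unadjusted p under 0.05), 12 fell without array 2 and 2 without array 3, and 2 or 3 fell without any 1 of the PGC arrays. Over all genes tested 230 fell with all arrays, and 59, 762 and 91 fell without PGCLC array 1, 2 or 3. Without 1 of the PGC arrays 100 to 114 fell. When limma was fitted to the 6 fetal-stage arrays only, 0 fell, with 13 lower at an unadjusted p under 0.05 and a lowest adjusted p of 0.0536.

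The order of the PGCLC arrays was shared by many of the fetal-stage members. For the 24 members over the limit on all PGC arrays, the median log2 difference from the PGC mean was -1.10 on PGCLC array 1, -0.26 on array 2 and -0.70 on array 3. For all 9890 genes over the limit on the PGC arrays these medians were -0.10, -0.04 and -0.10. Array 1 was the lowest of the 3 for 15 of 24 members, against 43.5% of all such genes, and array 2 the highest for 16 of 24, against 48.7%. The summed fetal germ cell markers ran in the same order of arrays, with 15572, 36630 and 55298 units on arrays 1, 3 and 2. Pou5f1 stood apart, at 6064, 7054 and 6286 units on these arrays. Dppa3, Dnd1, Kit, Ddx4 and Dazl each rose from array 1 to array 3 to array 2, Kit only from 2834 to 3853 units. Of 7 blood and macrophage markers, the globin genes Hbb-y and Hba-x ran in that order too, at 1136, 7843 and 14997 units for Hbb-y. The macrophage genes Cd68 and Csf1r ran in the opposite order, with 944, 635 and 109.7 units for Cd68 on arrays 1, 3 and 2 and 796, 600.5 and 280 units for Csf1r. Adgre1 shared this opposite order with a smaller gap, at 120, 109 and 95.9 units. Lyz2 and Ptprc, under the limit on all PGCLC arrays, ran in neither order. The summed testis somatic markers ran in the order of the germ cell markers, with 13196, 13994 and 15687.5 units on arrays 1, 3 and 2. Sox9, Wt1, Amhr2, Gata4, Cyp11a1, Star, Hsd3b1, Col3a1 and, under the limit, Myh11 each rose in that order. For Wt1 the values were 100, 298 and 906 units. Acta2 and Vim ran in the opposite order and Col1a1 in neither. The part of these markers in the order of the members was not tested. Members that were higher in PGCLC than in PGC on array 1 were Spag5, Spag9, Spata7, Tex261 and Spata6.

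**Figure D4:**
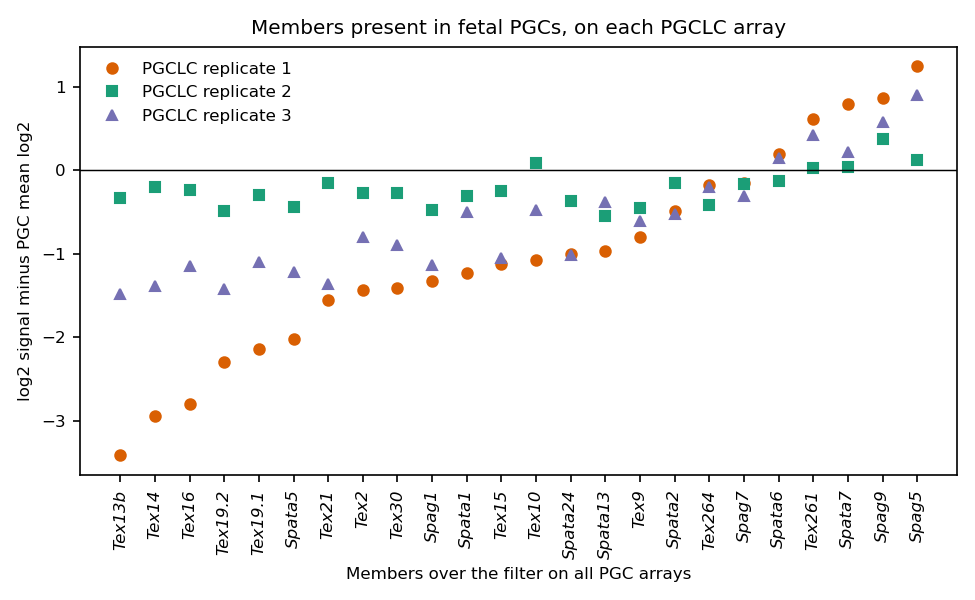
The log2 signal of each PGCLC array minus the PGC mean (y axis) for the 24 members over the limit on all PGC arrays (x axis, ordered by array 1). Array 2 lies near 0 for most members, with a median of -0.26, while array 1 reaches below -3 for Tex13b and lies above 0 for Spag5, Spag9, Spata7, Tex261 and Spata6.

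The broadly expressed members changed in both directions between stages. Of 12 tested, 5 rose in RS over PGC, where 31.8% of all genes did, and 2 fell, where 37.7% did. Tex10 was the only member that averaged over 10000 units in PGCLC or in PGC. It had 6504, 6597 and 6534 units in SLC and 9990.1, 9340.2 and 9467 units in RS, against 7824, 17516 and 11919 units in PGCLC and 15890.3, 16682 and 17024 units in PGC. Its RS minus PGC difference of -0.78 ± 0.21 (log2, SE; limma adjusted p = 0.00376) was short of 2-fold. Spag5, also called astrin, a protein of the mitotic spindle, averaged 1488 ± 85.3 units in SLC and 2550.3 ± 135 in RS, against 729.7 ± 264 in PGCLC and 414 ± 58 in PGC (SD, n = 3 each). It rose 6.19-fold in RS over PGC (limma adjusted p = 3.35e-07). Spata7, known from the connecting cilium of photoreceptors, averaged 5304 ± 50.6 units in SLC and 8999.6 ± 101 in RS, against 276 ± 78.9 in PGCLC and 213 ± 28.4 in PGC (SD, n = 3 each), a rise of 42.6-fold in RS over PGC (limma adjusted p = 2.8e-11). Tex2 averaged 6067 ± 121 units in SLC and 1094 ± 423 in PGCLC (SD, n = 3 each), a rise of 5.84-fold (limma adjusted p = 4.04e-07). Spata2l, a relative of the CYLD adaptor Spata2, was seen only in spermatids, with 260.0, 325 and 299 units in SLC and 508, 504 and 609.6 units in RS and at most 41.2 units on any PGCLC or PGC array. Tex264, a receptor for autophagy of the endoplasmic reticulum, changed by under 2-fold in all 4 comparisons, at 1197 ± 58.2 units in SLC, 1208 ± 194 in RS, 757 ± 67.1 in PGCLC and 908 ± 50.9 in PGC (SD, n = 3 each).

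Spata13, an exchange factor for small GTPases that acts in cell migration, was the only member that rose in SLC relative to RS. It had 364, 398 and 347 units in SLC and 69.4, 34.3 and 45.2 units in RS, against 418, 560.5 and 627 units in PGCLC and 849, 791 and 809 units in PGC. The SLC arrays lay between the fetal-stage arrays and the RS arrays and overlapped neither. The difference was 2.96 ± 0.24 in SLC relative to RS (log2, SE), or 7.77-fold (limma adjusted p = 7.51e-07), while RS was 17.2-fold lower than PGC (limma adjusted p = 7.97e-09). All 3 RS arrays lay under the limit of 92.03 units, and set against that limit SLC was 4.01-fold and PGC 8.87-fold higher. Another probe set of the gene had 217 ± 23.4 units in SLC and 95.4 ± 12 in RS (SD, n = 3 each), the same direction with a smaller gap. The testis somatic markers ran the same way, with 11 of 12 higher in SLC and sums of 64611 to 65847 units against 2484 to 2869 units in RS, and their part in the Spata13 result was not tested.

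Spag9, a scaffold of the JNK kinase pathway, was the other member higher in SLC by the adjusted p alone. It had 2674, 2686 and 3464 units in SLC and 2007, 2135 and 1993 units in RS, a difference of 0.51 ± 0.14 (log2, SE; limma adjusted p = 0.00629). It was also 0.61 higher on the log2 scale in PGCLC than in PGC (limma adjusted p = 0.00943), short of 2-fold at both stages. Another probe set of Spag9, over the limit on 11 arrays, gave 0.67 in SLC relative to RS but -0.08 in PGCLC relative to PGC.

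Probe sets of the same gene mostly moved in the same direction. Of 19 members with several probe sets over the limit on 3 arrays, Tex261 alone had probe sets of both signs in SLC relative to RS, and Spag9, Tex261 and Tex9 did in RS relative to PGC. Tex261, a membrane protein of the early secretory pathway, was read by its brightest probe set at 1592, 1565 and 1701 units in SLC and 2200.5, 2489 and 2233 units in RS. By the next brightest, of the _s_ kind, it had 907, 795 and 756 units in SLC and 276, 361 and 261 units in RS, and by the dimmest 565, 482 and 499 units in SLC and 158, 158 and 124 units in RS. The arrays did not overlap in any of the 3, and the log2 differences were -0.51, 1.46 and 1.82, so the direction for Tex261 depends on the probe set. A probe set of the _s_ kind may bind transcripts of more than 1 gene, and Spag5, Tex10 and Tex43 were read by such probe sets too.

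**Figure D5:**
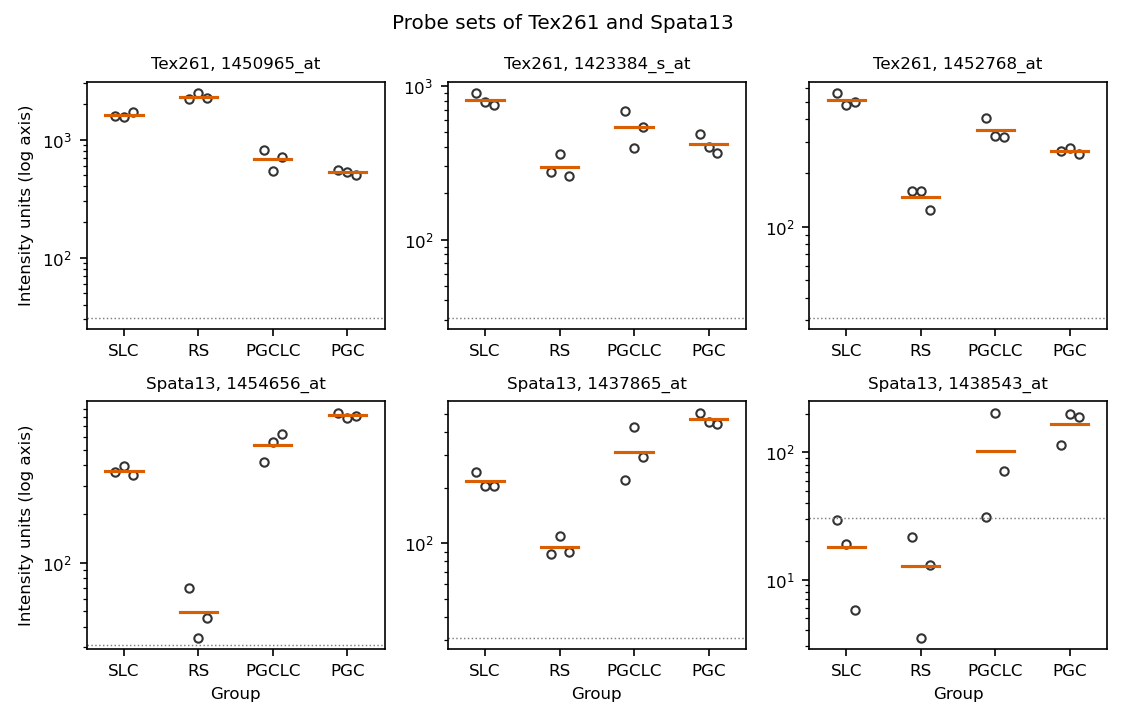
Intensity on each array (open circles) and group mean (bar) of 3 probe sets each of Tex261 and Spata13 in SLC, RS, PGCLC and PGC, on log axes with a dotted line at the floor of 30.75 units. For Tex261 the brightest probe set is lower in SLC than in RS and the other 2 are higher, while the first 2 Spata13 probe sets are both higher in SLC.

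Known partners of the members were counted as a list of genes outside the name rule, of which 28 of 30 were tested. They include MEIG1, which binds SPAG16, the SUN proteins, the calcineurin subunits PPP3R2 and PPP3CC, which bind SPATA33, UBR2, which binds TEX19.1, and the LAS1L, SENP3 and PELP1 complex of TEX10. In RS relative to PGC, 11 rose and 11 fell, where 31.8% of all genes rose and 37.7% fell, with Ppp3r2 at least 351-fold and Meig1 230.2-fold higher. In SLC relative to PGCLC, 9 rose and 11 fell, where 29.9% of all genes rose and 27.4% fell, with Meig1 at least 313-fold and Ppp3r2 at least 257-fold higher. In SLC relative to RS 4 rose and 0 fell, where 24.0% of all genes rose and 3.44% fell. By the limma adjusted p alone 17 were lower, where 31.8% of all genes were, and 5 were higher, where 32.0% were. The median over the tested partners was -0.69 on the log2 scale. The 4 that rose were Kif5b at 2.12 and Las1l at 1.87 and, named after their values were seen, Ubr2 at 1.81 and Cyld at 1.44. Las1l averaged 505 ± 22.7 units in SLC and 139 ± 19.4 units in RS (SD, n = 3 each), and its complex partner Tex10 was lower in SLC than in RS at -0.55 on the log2 scale (limma adjusted p = 0.0344). In PGCLC relative to PGC, 0 rose, where 10.4% of all genes did, and 2 fell, where 1.62% did. These were Piwil4, at least 3.82-fold lower, and Rsph1 at -1.18 on the log2 scale. On PGCLC arrays 1, 2 and 3 Piwil4 had 17.9, 135 and 52.1 units, and Rsph1 193, 790 and 319 units. The Rsph1 arrays overlapped those of PGC, at 874, 707 and 913 units. By the limma adjusted p alone 2 partners were higher, where 16.7% of all genes were, and 10 lower, where 13.4% were.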

How the data were processed

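RNA of 12 samples of mouse germ cells and germ cell-like cells, 3 each of SLC, RS, PGCLC and PGC, had been measured on single-colour Affymetrix arrays. The deposited values are linear intensity units per probe set, and per the submitters' processing notes they were made with MAS5. Its version, the background settings and the detection calls are not given in the sources used here. The authors' scaling was kept. Of 45101 probe sets, 64 controls, 932 with several gene symbols and 9160 with none were left out. Values under the 25th percentile of the table (30.75 units) were raised to it and taken to log2. A probe set was kept if over the table's median (92.03 units) on at least 3 arrays, and the brightest represented each gene, which gave 14197 genes.

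All arrays entered 1 fit with 4 group means in limma 3.58.1 (R 4.3.3; lmFit and eBayes with an intensity trend), so spread among the PGCLC arrays enters every p. Calls needed an adjusted p under 0.05 and 2-fold. The fit was tested on simulated data. Precision is limited by having 3 arrays a group.

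The members, role lists, partner and marker lists, and motifs were chosen with earlier results of these data known. Named genes were, per role list and comparison, the 3 called members with the largest change and arrays that did not overlap, and a set of landmark members; others were named after their values were seen. Spata22 and Tex40 are in the role lists but have no value here. Replicate numbers did not pair arrays: correlations of deviations between same-numbered arrays ran from -0.017 to 0.134, and in no comparison were all over 0.1. The 19 alternatives changed the floor, filter, scaling, arrays fitted, replicate block or probe set rule, or left out 1 array. Promoter sequences are RefSeq's, on GRCm38.p6.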

Additional observations from a re-analysis of the deposited data

Results flagged for a closer look

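The difference between in vitro and in vivo cells was itself compared between the stages, as the SLC minus RS difference less the PGCLC minus PGC difference in the limma fit. Of 61 members tested, 1 was called with a positive value, where 21.1% of all genes were, and 13 with a negative one, where 11.2% were. Spata13 had 3.59 on the log2 scale (limma adjusted p = 6.76e-06), being higher in SLC than in RS and lower in PGCLC than in PGC on all 3 arrays of each.

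The named members with a negative value included 3 for which it came mostly from the SLC and RS arrays. Tex22 had -1.45 (limma adjusted p = 0.000117) and Tex50 -1.31 (limma adjusted p = 0.0026), both under the floor or near it in PGCLC and PGC. Spag6l, a copy of the central pair gene Spag6, had -1.09 (limma adjusted p = 0.0034). It was under the floor on all fetal-stage arrays but 1, PGCLC array 3 at 47.6 units, and its SLC minus RS difference alone was -0.88, short of 2-fold.

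The other 4 were higher in PGCLC than in PGC and lower in SLC than in RS by their means. X-linked Tex13a had -1.56 (limma adjusted p = 4.95e-05), the nuclear envelope gene Spag4 -1.84 (limma adjusted p = 0.0015), the spindle gene Spag5 -1.53 (limma adjusted p = 0.00243) and Spata7 -1.11 (limma adjusted p = 0.00277). For Tex13a and Spag4 the arrays did not overlap at either stage, and for Spag5 and Spata7 they overlapped at the fetal stage. All 3 PGC arrays of Spag4 lay under the floor and its PGCLC arrays under the limit, so the size of its value and its p are set in part by the floor. The part of the spread among PGCLC arrays in these values was not tested.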

How the results depend on the processing

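Of 1976 values of named members under the 19 alternatives, 1896 kept their direction and their side of the threshold, 48 lost a call, 22 gained one and 10 changed sign. With 3 arrays a group and no detection calls, members near the floor have no settled order.

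Members called lower in PGCLC than in PGC numbered 6, 13 with median centring, 0 in the fit of only the arrays compared, and 0 to 12 with 1 array left out; those called higher numbered 1, 0 with median centring, quantile normalisation or only the arrays compared, 2 with log2(value + 16), and 0 to 2 with 1 array left out. Over all genes that smaller fit called 170 higher and 7 lower, against 1470 and 230. Leaving out 1 array gave 981 to 2138 higher and 59 to 762 lower over all genes in PGCLC minus PGC. With 1 array left out, SLC minus PGCLC gave 2 to 5 lower, the difference between stages 1 to 5 higher and 12 to 16 lower, SLC minus RS 6 to 7 lower and RS minus PGC 5 to 6 lower. Members lower in SLC than in RS numbered 6, 27 with median centring and 10 with quantile normalisation, and the difference between stages gave 13 negative calls, 23 with median centring. Sign changes were Spata6 in PGCLC minus PGC (0.07; -0.23 with median centring, -0.071 as the mean over probe sets, -0.19 with quantile normalisation, and -0.021 to 0.17 with 1 array left out), Spata5 (-0.73 to 0.062) and Tex14 (-1.22 to 0.15) in SLC minus PGCLC, both positive without PGCLC array 2, and Tex264 in SLC minus RS (-0.14 to 0.084). The causes were not tested. Over all genes the split of calls in PGCLC minus PGC was 1066 higher and 377 lower with quantile normalisation and 1000 and 883 with median centring; for the difference between stages it was 3001 and 1584, against 2428 and 1954 with quantile normalisation.

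The replicate numbers did not pair the arrays, and a fit with the number as a replicate block gave 7 members lower in PGCLC than in PGC, against 6, and changed no call of a named member.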
